A study of Homo sapiens with 6 samples.

Results

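The glucocorticoid receptor and the chaperone machinery that holds it ready for hormone were examined in a pair of childhood B-cell acute lymphoblastic leukaemia lines. The set was chosen by gene name and comprised 7 of the 25838 genes in the deposited table, namely NR3C1, which encodes the receptor, HSP90AA1 and HSP90AB1, which encode the cytosolic HSP90 proteins, STIP1, PTGES3, FKBP5 and FKBP4. RNA was sequenced from Sup-PR, a prednisolone-resistant sub-clone, and from its parental prednisolone-sensitive line, Sup-B15, with 3 libraries each. No drug treatment of the sequenced cells is described, and the labels describe the same serum-containing medium for both, so values are read as baseline levels. Sup-PR was selected under prednisolone. The paper does not state whether it was kept in the drug before harvest, so an effect of remaining drug cannot be told apart from a baseline difference. The labels call the libraries biological triplicates without stating that they came from separate cultures, and each line is a single line or sub-clone, so every p-value reflects only library-to-library variation, possibly technical, and differences between the lines cannot be told apart from differences between 1 clone and its parent.

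As background, the unliganded glucocorticoid receptor sits in the cytosol in a complex that is assembled in steps. HSP70 and HSP40 proteins bind the newly made receptor, STIP1 (also called HOP) passes it from HSP70 to HSP90, PTGES3 (p23) stabilises the closed HSP90 that lets the hormone pocket open, and an immunophilin, FKBP5 or FKBP4, takes the last place on the HSP90 tail. FKBP5 lowers the affinity for hormone and is itself switched on by the active receptor, whereas FKBP4 links the complex to dynein and favours passage into the nucleus. In lymphoid cells the liganded receptor induces cell death, which is why prednisolone is used against lymphoblastic leukaemia.

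Sequence around the transcription start was looked up for the members because the chaperone genes are known targets of heat shock factors and FKBP5 of the receptor itself. The RefSeq windows on GRCh38.p14 run from 250 bases before to 50 bases after an annotated start, and 6 of the 7 members matched, with 17 windows in all. Windows of HSP90AB1 (chr6:44247693-44247992, plus strand), HSP90AA1 (chr14:102086995-102087294, minus strand), STIP1 (chr11:64185921-64186220, plus strand) and FKBP5 (chr6:35688866-35689165, minus strand) are shown 5′ to 3′. The HSP90 genes are shown because only one of them was called, and STIP1 and FKBP5 because they kept an adjusted p under 0.05 in 19 of 19 alternative fits. PTGES3, which did so in 12, had 1 window, with neither motif marked here, and it is not shown. Of each gene's windows the one with most matches was chosen after the matches were seen. Capitals mark a heat shock element with 3 units, TTCNNGAANNTTC on either strand, in the HSP90 windows and the CCAAT box, on either strand, in the STIP1 and FKBP5 windows.
HSP90AB1: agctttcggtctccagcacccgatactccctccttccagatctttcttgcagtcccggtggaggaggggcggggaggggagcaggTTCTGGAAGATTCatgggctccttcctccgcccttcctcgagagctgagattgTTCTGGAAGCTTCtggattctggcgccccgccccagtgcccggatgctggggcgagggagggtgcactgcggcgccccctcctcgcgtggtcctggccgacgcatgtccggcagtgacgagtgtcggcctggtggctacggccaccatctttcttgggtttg
HSP90AA1: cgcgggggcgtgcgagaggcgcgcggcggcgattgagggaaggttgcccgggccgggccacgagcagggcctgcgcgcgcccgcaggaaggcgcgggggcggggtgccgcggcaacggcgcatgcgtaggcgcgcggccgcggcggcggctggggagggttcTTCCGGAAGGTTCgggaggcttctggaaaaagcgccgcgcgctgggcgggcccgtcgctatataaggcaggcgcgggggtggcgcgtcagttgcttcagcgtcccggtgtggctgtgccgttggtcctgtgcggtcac
STIP1: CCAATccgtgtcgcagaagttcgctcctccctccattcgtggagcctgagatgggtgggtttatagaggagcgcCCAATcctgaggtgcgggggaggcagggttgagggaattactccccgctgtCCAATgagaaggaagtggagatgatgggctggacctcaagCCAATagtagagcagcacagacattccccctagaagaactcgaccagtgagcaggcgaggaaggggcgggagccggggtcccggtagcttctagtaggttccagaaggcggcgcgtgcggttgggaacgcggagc
FKBP5: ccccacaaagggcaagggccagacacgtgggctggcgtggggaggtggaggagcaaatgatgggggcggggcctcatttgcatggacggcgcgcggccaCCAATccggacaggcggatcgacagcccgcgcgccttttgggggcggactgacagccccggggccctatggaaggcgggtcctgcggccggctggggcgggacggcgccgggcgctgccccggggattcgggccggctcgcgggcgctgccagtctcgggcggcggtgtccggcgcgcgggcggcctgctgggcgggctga

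The heat shock element with 3 units was found in 172 of 35116 windows (0.49%), and among the members only in these windows of HSP90AB1, at -165 and -112 from the start, and HSP90AA1, at -88. Each such match also contains matches of the shorter form with 2 units (TTCNNGAA or GAANNTTC), which 13.5% of all windows hold and which was found in 1 window each of HSP90AB1, HSP90AA1 and STIP1. The CCAAT box was found in 34.6% of all windows. Among the members it was found in 3 windows of NR3C1 and in 1 window each of HSP90AA1, STIP1 and FKBP5. It is thus not particular to the windows in which it is marked, and 4 matches lay in the STIP1 window. A full palindromic glucocorticoid response element, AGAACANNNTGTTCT, was found in 1 window of the table and in none of the members. Its 6-base arm alone, AGAACA on either strand, was found in 14.8% of all windows, in 1 window of FKBP5 that is not shown and in the HSP90AB1 window at -114, where it overlaps the heat shock element. These are matches of letters in a short window and not measured binding sites.

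Depth ranged between 20112543 and 23608056 counts in the Sup-PR libraries and between 16966569 and 26603422 counts in the Sup-B15 libraries, with 20681 to 22856 genes detected per library, and no pair of libraries agreed within sampling noise. Of 14 precursor B-cell markers, all were detected in both lines, and their summed level was 7772 to 8282 counts scaled to library size (CPM, corrected with TMM factors) in Sup-PR and 9131 to 10176 CPM in Sup-B15. Markers of other cell types summed to less, namely 9.29 to 13.8 CPM in Sup-PR and 46.9 to 53.7 CPM in Sup-B15 for 8 T-cell genes (CD3D, CD3E, CD3G, CD2 and TRBC2 not listed, CD5 and CD8A at 0 counts in Sup-PR), and 22.6 to 23.7 against 52.6 to 60.6 CPM for 6 NK-cell genes (KLRD1, GNLY and NCR1 not listed, KLRF1 at 0 counts in Sup-PR). The 8 myeloid genes summed to 6.13 to 8.39 CPM in Sup-PR and 16.5 to 24.6 CPM in Sup-B15 (ELANE, LYZ and FCGR3A not listed, CD33 at 0 counts in Sup-PR), and the 6 stromal genes to 9.58 to 12.3 and 11.0 to 11.9 CPM. Nearly all of the T-cell sum was TRAC, with means of 12.1 CPM in Sup-PR and 49.8 CPM in Sup-B15. Likewise the NK-cell sum was mostly NKG7 (23.1 and 55.1 CPM) and the stromal sum mostly PDGFRB (11.3 and 11.2 CPM). Among the myeloid genes, CTSG averaged 1.03 and 11.2 CPM and MPO 3.78 and 4.35 CPM. The largest parts of the precursor B-cell sum were DNTT (2332 and 2949 CPM) and IGLL1 (1790 and 2027 CPM). By adjusted p alone, 8 of these 14 markers were lower in Sup-PR and 1, TCF3, was higher, beside 27.4% and 28.0% of all genes tested. The precursor B-cell, T-cell, NK-cell and myeloid sums were lower in Sup-PR, and their part in the results was not tested. In bulk RNA, fewer cells of a type and less RNA per cell cannot be told apart, and these sums do not show whether such other cells were present.

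Across the set, 6 of the 7 members had enough counts to be tested and 1 passed both thresholds, an adjusted p under 0.05 and a change of more than 1.5-fold. This was HSP90AB1, higher in Sup-PR, and no member was called lower. Of the 14869 genes tested, 7.53% were called higher and 15.4% lower in Sup-PR. By adjusted p alone, HSP90AB1, FKBP5, STIP1 and PTGES3 rose and none fell, against a background of 28.0% of genes higher and 27.4% lower. In CPM, the libraries of the lines did not overlap for 4 tested members with Sup-PR higher and for NR3C1 with Sup-PR lower, where the background was 30.8% and 30.3%. Among these, PTGES3 overlapped when taken as a share of all counts without TMM factors. The 6 members tested had a median log2 fold change of 0.29, beside -0.01 for all genes tested. At an unadjusted p under 0.05, 0 members were lower in edgeR and 1 each in DESeq2 and limma-voom, and none of these tools called a member lower. In limma-voom the member was NR3C1. DESeq2 was run on 25838 genes with no such filter on low counts, so it also covered FKBP4. Which member was lower there is not given here, and it need not be NR3C1. All adjusted p-values named edgeR below come from its quasi-likelihood test, adjusted after Benjamini and Hochberg over every gene tested, and fold changes are Sup-PR over Sup-B15.

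**Figure D1:**
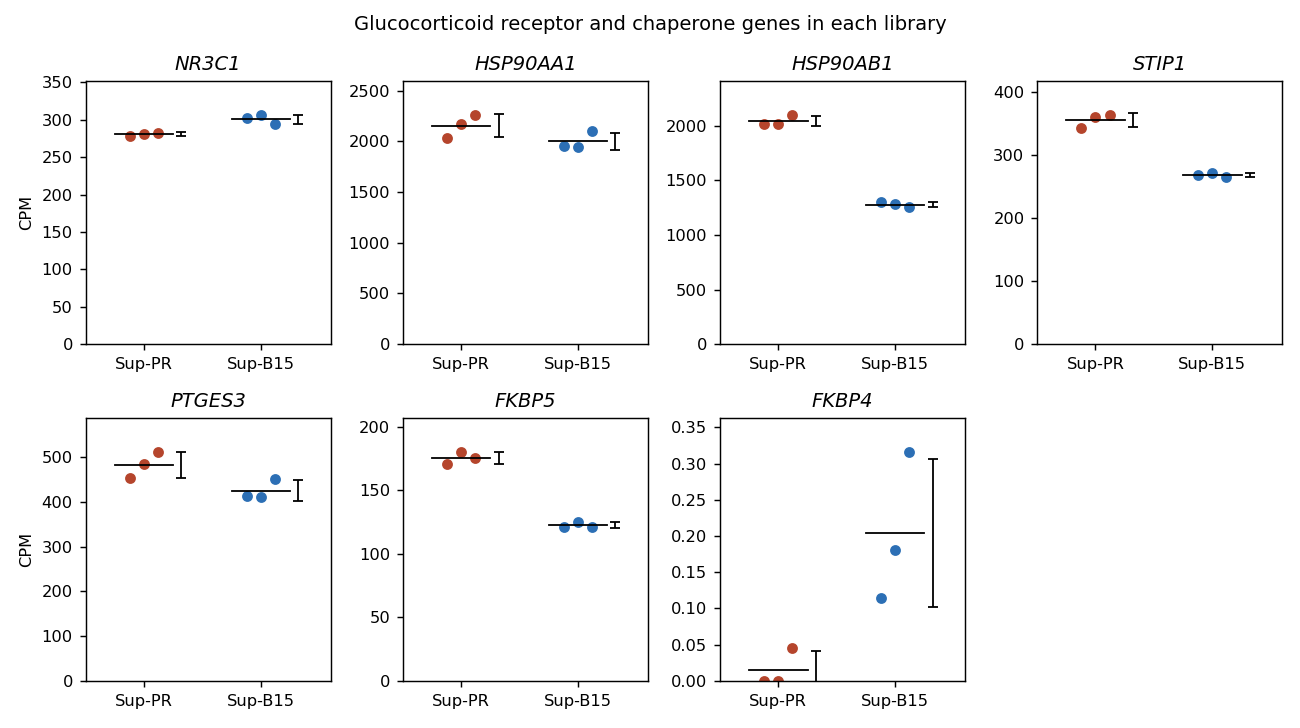
CPM of each of the 7 genes (vertical axes start at 0) in the Sup-PR libraries (red) and the Sup-B15 libraries (blue). Points are libraries, horizontal lines are means and bars are the SD of 3 libraries (cut at 0 for FKBP4). HSP90AB1, STIP1 and FKBP5 stood higher in every Sup-PR library, the HSP90AA1 ranges overlapped, and FKBP4 reached at most 0.316 CPM.

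The receptor gene itself was close to even between the lines. NR3C1 (ENSG00000113580, chr5:143277931-143435512, minus strand) had 278, 281 and 283 CPM in Sup-PR and 302, 306 and 294 CPM in Sup-B15. All Sup-PR libraries thus lay below all Sup-B15 libraries, by a margin that is small beside their level. The log2 fold change was -0.10 ± 0.05 (SE), a ratio of 0.933 with a 95% confidence interval of 0.87 to 1.0, and it did not pass the test (edgeR adjusted p = 0.0843). The call depends on the settings, and without Sup-B15 replicate 3 the adjusted p was 0.026. The protein was not measured in these libraries, and the table gives 1 value per gene, so the receptor's splice forms were not analysed here.

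The genes whose profile over the 6 libraries lay nearest to that of NR3C1, among 11854 protein-coding genes, were MEF2C, ZKSCAN5 and SCAF11, at distances of 0.0275, 0.0327 and 0.041 on the centred log2 CPM scale. MEF2C, a transcription factor of B-lymphoid cells, averaged 507 CPM in Sup-PR and 543 CPM in Sup-B15. This is a description of likeness over 6 libraries that fall into 2 lines.

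The cytosolic HSP90 genes differed from each other. HSP90AB1 (ENSG00000096384, chr6:44246166-44253888, plus strand), the form described as constitutive, had 2015, 2017 and 2093 CPM in Sup-PR and 1301, 1280 and 1251 CPM in Sup-B15. The lowest Sup-PR library stood far above the highest Sup-B15 library. HSP90AB1 rose 1.6-fold (95% confidence interval 1.47 to 1.73, log2 fold change 0.68 ± 0.05 SE, edgeR adjusted p = 2.21e-07). The interval includes the threshold of 1.5-fold, and a test against that fold (edgeR's glmTreat) called 0 members, with 1, HSP90AB1, at an unadjusted p under 0.05.

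HSP90AA1 (ENSG00000080824, chr14:102080738-102139699, minus strand), the form induced by heat and other stress, had 2031, 2170 and 2256 CPM in Sup-PR and 1952, 1948 and 2099 CPM in Sup-B15. The ranges overlapped, since the highest Sup-B15 library lay above the lowest Sup-PR library. The log2 fold change was 0.11 ± 0.06 (SE), a ratio of 1.08 with an interval of 0.982 to 1.18, and it did not pass the test (edgeR adjusted p = 0.16), although it did without Sup-PR replicate 1 (adjusted p = 0.0414). Of the 5248 exonic bases of HSP90AA1 in GENCODE release 29, 197 are shared with WDR20 on the opposite strand, which had 518 to 641 counts in Sup-PR and 361 to 509 counts in Sup-B15. The strand setting of the counting is not given in the sources used here, so reads in the shared bases cannot be assigned.

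**Figure D2:**
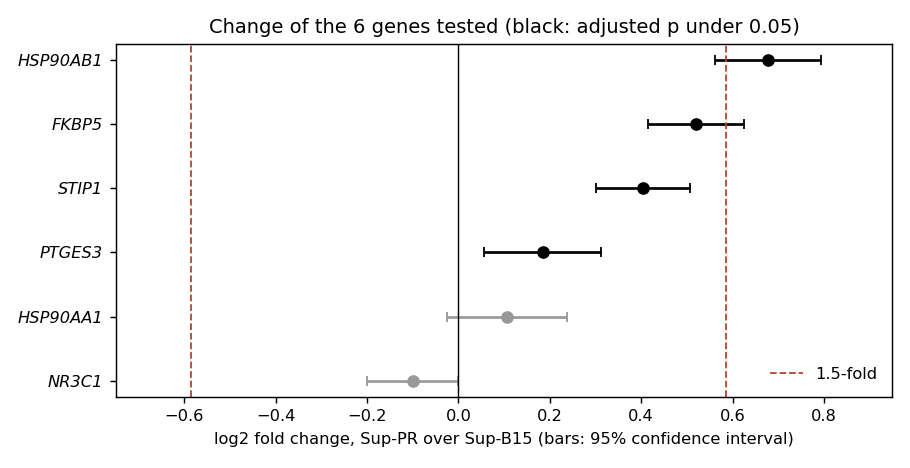
Log2 fold change of the 6 genes tested (horizontal axis, Sup-PR over Sup-B15), with 95% confidence intervals as bars and 1.5-fold as dashed lines. HSP90AB1, FKBP5, STIP1 and PTGES3 (black) lay above 0 with adjusted p under 0.05, and only the HSP90AB1 estimate lay past 1.5-fold.

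The balance of the HSP90 forms was therefore compared within each library, which needs no scaling between libraries. Per gene length, in FPKM (fragments scaled to gene length and to the depth of the library), the ratio of HSP90AB1 to HSP90AA1 was 1.75, 1.64 and 1.63 in Sup-PR and 1.17, 1.16 and 1.05 in Sup-B15. Every Sup-PR ratio was above every Sup-B15 ratio. The difference was 0.57 on the log2 scale, or 1.49-fold (two-sided exact permutation test, p = 0.1, n = 3 each, adjusted p = 0.1 over 2 ratios), and 0.1 is the smallest p that 3 against 3 can give. As a share of all HSP90 counts, HSP90AB1 took 49.8, 48.2 and 48.1% in Sup-PR and 40.0, 39.6 and 37.3% in Sup-B15. Together the HSP90 genes made up 0.4, 0.408 and 0.418% of all counts in Sup-PR and 0.335, 0.335 and 0.336% in Sup-B15.

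The receptor was also set against its chaperone. The ratio of NR3C1 to the summed HSP90 genes, in FPKM, was 0.0285, 0.0281 and 0.0272 in Sup-PR and 0.0408, 0.0417 and 0.0391 in Sup-B15. All Sup-PR libraries lay below all Sup-B15 libraries. The difference was -0.54 on the log2 scale, a ratio of 0.69 (two-sided exact permutation test, p = 0.1, n = 3 each, adjusted p = 0.1, again the smallest possible). The log2 fold changes of the genes in it were -0.10 for NR3C1, 0.11 for HSP90AA1 and 0.68 for HSP90AB1. The ratio thus mostly restates the HSP90AB1 rise and is not a separate result on the receptor.

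**Figure D3:**
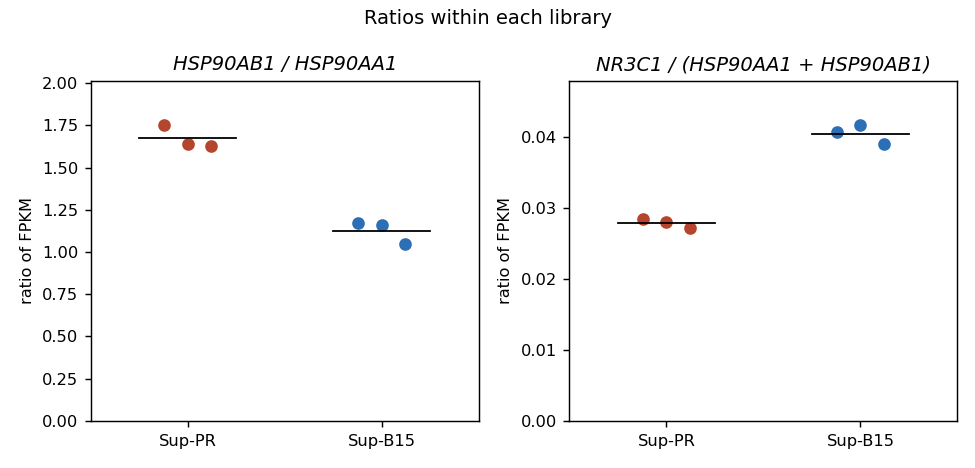
Ratio of FPKM values in each library (vertical axes start at 0) for HSP90AB1 over HSP90AA1, left, and NR3C1 over the sum of both HSP90 genes, right. Red points are Sup-PR libraries, blue points Sup-B15 libraries and lines their means. The Sup-PR points lay between 1.63 and 1.75 on the left and between 0.0272 and 0.0285 on the right, apart from the Sup-B15 points in each panel.

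STIP1 (ENSG00000168439, chr11:64185272-64204543, plus strand), the adaptor that joins HSP70 to HSP90, had 343, 361 and 363 CPM in Sup-PR and 269, 272 and 265 CPM in Sup-B15. The groups did not overlap. STIP1 rose 1.32-fold (95% confidence interval 1.23 to 1.42, edgeR adjusted p = 9.97e-06), below the threshold of 1.5-fold.

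PTGES3 (ENSG00000110958, chr12:56663341-56688408, minus strand), which encodes the p23 co-chaperone, had 452, 485 and 511 CPM in Sup-PR and 413, 410 and 451 CPM in Sup-B15. In CPM the groups only just failed to overlap, with the lowest Sup-PR library next to the highest Sup-B15 library. As a share of all counts, without TMM factors, they overlapped, at 0.0448% in Sup-PR replicate 1 and 0.0453% in Sup-B15 replicate 3. PTGES3 rose 1.14-fold (95% confidence interval 1.04 to 1.24, edgeR adjusted p = 0.018). This call was lost without Sup-PR replicate 2 (adjusted p = 0.0821), Sup-PR replicate 3 (0.111), Sup-B15 replicate 1 (0.093) or Sup-B15 replicate 2 (0.0948).

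The immunophilins differed greatly in their deposited counts. FKBP5 (ENSG00000096060, chr6:35573585-35728583, minus strand), which encodes FKBP51, had 171, 180 and 175 CPM in Sup-PR and 121, 125 and 121 CPM in Sup-B15. The groups were well apart, and the spread within each line was a few CPM. FKBP5 rose 1.43-fold (95% confidence interval 1.33 to 1.54, log2 fold change 0.52 ± 0.05 SE, edgeR adjusted p = 9.92e-07), which is just below the threshold of 1.5-fold. Among 11854 protein-coding genes, the profiles nearest to FKBP5 were those of ZBED3, SLC43A3 and AXIN1, at distances of 0.0476, 0.0492 and 0.0503 on the centred log2 CPM scale.

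FKBP4 (ENSG00000004478, chr12:2794953-2805423, plus strand), which encodes FKBP52, was almost without counts. It had 0, 0 and 1 counts in Sup-PR and 2, 5 and 6 counts in Sup-B15, too few to be tested. Summed over libraries, this was 1 count in Sup-PR and 13 in Sup-B15. Scaled to the TMM-corrected library sizes, the ratio was 0.0755, with an exact interval of 0.00178 to 0.503 that covers counting error only. Of the counts of both immunophilins, FKBP4 took 0.00873% in Sup-PR (exact binomial 95% interval 0.000221 to 0.0486%) and 0.165% in Sup-B15 (0.0881 to 0.283%). With 0 counts in 2 Sup-PR libraries, no ratio of FKBP5 to FKBP4 was computed per library.

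FKBP4 is known as a widely expressed gene, so the genes within 100 kb of it were looked at, a choice made after its values were seen. ITFG2, the nearest gene downstream, had 1258 counts over the Sup-PR libraries and 1241 over the Sup-B15 libraries. FOXM1, a transcription factor of dividing cells, had 8263 counts in Sup-PR and 9290 in Sup-B15, RHNO1 had 3891 and 3440, and TULP3 had 1324 and 1069. These neighbours had many more counts than FKBP4 in each line, while TEX52, between them, had 8 in Sup-PR and 19 in Sup-B15 and AC005911.1 had 27 and 30. All of these lie downstream. Upstream, the nearest listed gene, ITFG2-AS1, had 0 and 2 counts, and CACNA1C had 393 and 379. In GENCODE release 29, 588 of the 5180 exonic bases of FKBP4 (11.4%) are shared with genes on the opposite strand. Whether the few counts reflect the level of the transcript or a loss of its reads in counting was not tested, so the FKBP4 level, share and ratio describe the deposited counts only.

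**Figure D4:**
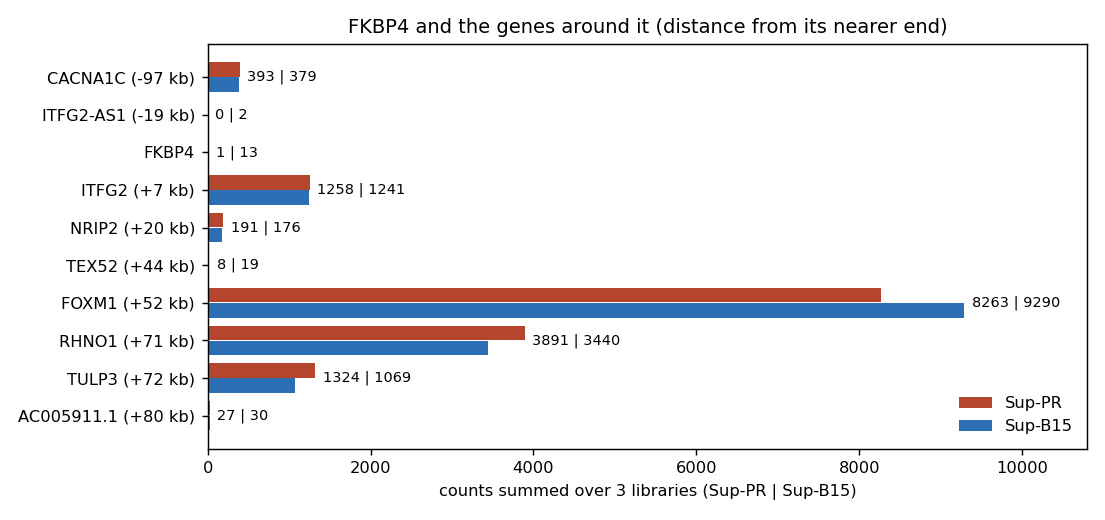
Counts summed over 3 libraries (horizontal axis) for FKBP4 and the listed genes within 100 kb of it, ordered along the chromosome with the distance from the nearer end of FKBP4 in brackets. Red bars are Sup-PR and blue bars Sup-B15. FKBP4 had 1 and 13 counts, whereas FOXM1 had 8263 and 9290.

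Levels can be compared between genes only per length, and in FPKM the order of the members was the same in both lines. The lengths used equal all exonic bases in GENCODE release 29, 5248 for HSP90AA1 and 2980 for HSP90AB1, so the order depends on them. In CPM, without length, HSP90AA1 averaged above HSP90AB1, at 2152 against 2041 in Sup-PR and 2000 against 1277 in Sup-B15. HSP90AB1 averaged 682 ± 21.5 FPKM in Sup-PR and 424 ± 8.72 in Sup-B15 (SD, n = 3 each), followed by HSP90AA1 at 409 ± 26.1 and 377 ± 15.6 FPKM. PTGES3 averaged 142 FPKM in Sup-PR and 124 FPKM in Sup-B15, STIP1 76.1 and 57.1 FPKM, NR3C1 30.5 and 32.5 FPKM, and FKBP5 16.4 and 11.4 FPKM. Within a line, the members' CPM varied by 0.835 to 6.13% (coefficient of variation, 3 libraries, FKBP4 left out). No neighbours in this order overlapped in either line, and the closest were the HSP90 genes in Sup-B15, where the lowest HSP90AB1 library (415 FPKM) lay just above the highest HSP90AA1 library (395 FPKM). Ranked by FPKM among protein-coding genes, HSP90AB1 stood between places 34 and 56 over the 6 libraries, NR3C1 between 1208 and 1487, and FKBP4 between 12436 and 13428.

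**Figure D5:**
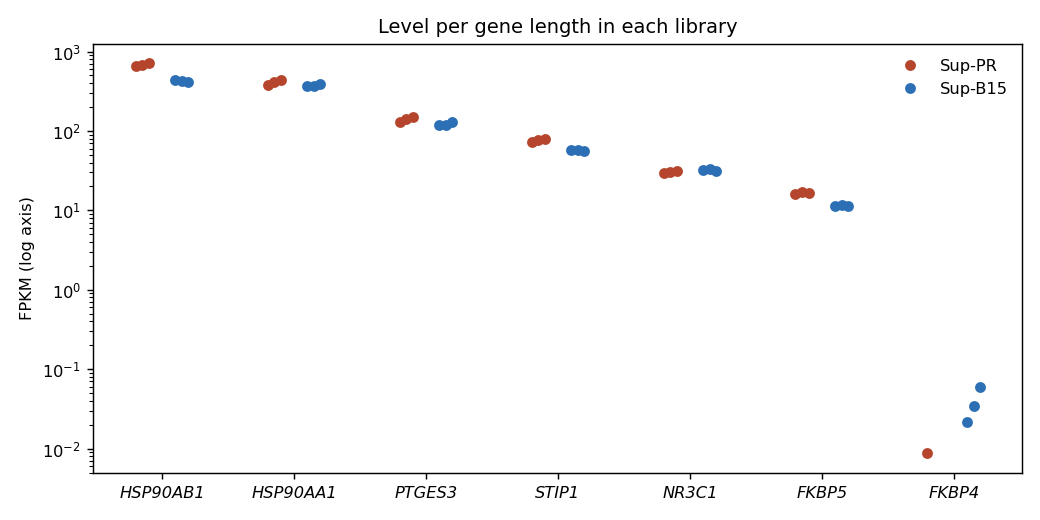
FPKM of each gene in each library on a log axis, Sup-PR in red and Sup-B15 in blue, ordered by level. The 2 Sup-PR libraries with 0 for FKBP4 cannot be drawn on a log axis. The order was the same in both lines, and the members other than FKBP4 lay between 11.2 and 707 FPKM.

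Other HSP90 co-chaperones and adaptors were then counted in the same fit. Of 23 genes, 16 rose by adjusted p alone and none fell, beside 28.0% and 27.4% of all genes tested, and their median log2 fold change was 0.24 beside -0.01 for all genes. In edgeR 0 passed 1.5-fold in either direction, as in DESeq2 and limma-voom, beside 7.53% of all genes called higher and 15.4% called lower. At an unadjusted p under 0.05, 17 were higher and 0 lower in edgeR. With counts scaled by upper quartile or by library size only, 13 were higher by adjusted p alone. The median log2 fold change was then 0.18 and 0.17, beside -0.07 and -0.08 for all genes. ST13 (HIP), which binds HSP70 early in receptor assembly and had most counts in the list, averaged 420 ± 16.0 CPM in Sup-PR and 326 ± 12.8 CPM in Sup-B15 and rose by 0.37 on the log2 scale (edgeR adjusted p = 4.82e-05). TTC4 and AARSD1, at 0.888 and 1.53 CPM in Sup-PR and 0.961 and 2.17 CPM in Sup-B15, share 52.4% and 34.2% of their exonic bases with a read-through gene, so their counts are uncertain. The HSP90 forms of other compartments both rose, TRAP1 of the mitochondrion to 128 ± 2.04 CPM in Sup-PR against 77.3 ± 1.8 CPM in Sup-B15 (log2 fold change 0.73, edgeR adjusted p = 5.71e-08).

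Among HSP70 chaperones, HSP40 partners and nucleotide exchange factors, 18 of 20 were tested, and 7 rose and 3 fell by adjusted p alone, beside 28.0% and 27.4% of all genes tested. With counts scaled by upper quartile or by library size only, 5 were lower. The median log2 fold change was 0.02 (-0.04 and -0.05 under these scalings). BAG2 averaged 57.1 ± 2.59 CPM in Sup-PR and 30.2 ± 0.517 CPM in Sup-B15, and BAG4 33.2 ± 0.965 and 20.3 ± 1.06 CPM. Both are BAG-domain regulators of HSP70 and both were called higher (edgeR adjusted p = 5.38e-08 and 2.63e-06). HSPA1A, stress-induced HSP70, averaged 0.801 ± 0.218 CPM in Sup-PR and 13.1 ± 0.622 CPM in Sup-B15 and was called lower (edgeR adjusted p = 6.65e-10), as was HSPA2, at 2.25 ± 0.419 and 4.1 ± 0.531 CPM (adjusted p = 0.00239). HSPA1B, nearly identical to HSPA1A, averaged 6.57 CPM in Sup-PR and 7.07 CPM in Sup-B15, and reads could be split between this pair, so the value of HSPA1A is uncertain.

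Of the heat shock factors and their binding protein, 3 of 4 rose by adjusted p alone, beside 28.0% of all genes tested. HSF2 averaged 49.4 ± 1.87 CPM in Sup-PR and 32.3 ± 1.97 CPM in Sup-B15, 1.53-fold higher (edgeR adjusted p = 4.7e-06), and was 1.46-fold higher, below the threshold, when counts were scaled by library size only. Other FKBP immunophilins had 4 of 10 tested members higher by adjusted p alone and none lower in edgeR, DESeq2 or limma-voom (0 lower at an unadjusted p under 0.05), beside 28.0% and 27.4% of all genes tested. With counts scaled by upper quartile or by library size only, 1 was lower. FKBP11, which resides in the endoplasmic reticulum, averaged 25.1 ± 0.552 CPM in Sup-PR and 9.27 ± 0.768 CPM in Sup-B15, a 2.69-fold rise (edgeR adjusted p = 2.35e-08). FKBP1A, the small immunophilin that binds tacrolimus, averaged 157 and 115 CPM. It is named here after its values were seen.

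The importins, dynein subunits and nucleoporins that carry the receptor to the nucleus had 6 of 14 members higher and 2 lower by adjusted p alone, beside 28.0% and 27.4% of all genes tested, and 4 lower with counts scaled by upper quartile or by library size only. There were 0 past 1.5-fold in either direction in edgeR, DESeq2 or limma-voom, beside 7.53% of all genes called higher and 15.4% called lower. At an unadjusted p under 0.05, 7 were higher and 3 lower in edgeR. KPNB1 (importin beta), with most counts, averaged 681 ± 7.59 CPM in Sup-PR and 523 ± 4.02 CPM in Sup-B15 (log2 fold change 0.38, edgeR adjusted p = 1.74e-05). Of the other steroid receptors only NR3C2, the mineralocorticoid receptor, which also binds cortisol, had enough counts to be tested. It averaged 2.62 ± 0.331 CPM in Sup-PR and 2.27 ± 0.653 CPM in Sup-B15 and did not pass the test (edgeR adjusted p = 0.512).

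Both enzymes tested of those that interconvert active and inactive glucocorticoid fell in Sup-PR past 1.5-fold, beside 15.4% of all genes called lower. HSD11B1, which reduces cortisone and prednisone to their active forms, had 3 counts over the Sup-PR libraries and 267 over the Sup-B15 libraries (edgeR adjusted p = 3.1e-08). H6PD, which supplies it with NADPH in the endoplasmic reticulum, averaged 35.5 ± 4.91 CPM in Sup-PR and 75.1 ± 5.82 CPM in Sup-B15 (ratio 0.474, edgeR adjusted p = 3.8e-07). HSD11B2, which runs the opposite reaction, had 0 counts in Sup-PR and 4 in Sup-B15 and was not tested.

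FKBP5 is also a gene that the receptor induces, so it was set beside other genes known to be induced by glucocorticoid. Of 18 tested, 1 rose and 9 fell by adjusted p alone, beside 28.0% and 27.4% of all genes tested. Of these, 1 and 5 were past 1.5-fold, beside 7.53% of all genes called higher and 15.4% called lower. The median of the list was -0.23 on the log2 scale, beside -0.01 for all genes. With counts scaled by upper quartile or by library size only, 10 were lower by adjusted p alone. The median was then -0.29 and -0.30, beside -0.07 and -0.08 for all genes. ERRFI1, a feedback inhibitor of the EGF receptor, averaged 4.48 ± 0.529 CPM in Sup-PR and 1.68 ± 0.418 CPM in Sup-B15 (2.72-fold higher, edgeR adjusted p = 8.16e-05). TXNIP, an inhibitor of thioredoxin and of glucose uptake, averaged 31.5 ± 1.18 CPM in Sup-PR and 58.1 ± 0.985 CPM in Sup-B15 (ratio 0.542, adjusted p = 5.52e-08). CXCR4, the chemokine receptor that holds lymphoblasts in the marrow, averaged 151 ± 15.1 CPM in Sup-PR and 270 ± 29.5 CPM in Sup-B15 (ratio 0.56, adjusted p = 2.81e-06). FKBP5 rose, as did 1 of the 10 members of this list that changed, and TSC22D3, PER1 and KLF9, named here after their values were seen, had log2 fold changes of -0.08, 0.10 and 0.09 that did not pass the test.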

How the data were processed

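Paired-end RNA-seq of 3 Sup-PR and 3 Sup-B15 libraries was analysed from the table the authors deposited. Per the labels and the study's methods, reads were mapped with HISAT2 to GRCh38.p12 by the sequencing provider. No source used here names the counting program, its strand setting or the annotation. The deposited raw counts per gene entered all tests. The deposited FPKM values, which equal counts divided by gene length times 1 constant per library, were used to compare levels between genes. The authors' own comparison columns (log2 fold change, p-value and adjusted p-value) were not used, nor were 6 columns of scaled values per library.

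Genes were filtered with filterByExpr (14869 of 25838 kept) and tested with TMM scaling and edgeR 4.0.16 (glmQLFit robust, glmQLFTest) under R 4.3.3, with Benjamini-Hochberg adjustment, and calls needed an adjusted p below 0.05 with more than 1.5-fold change, after the study's thresholds. CPM use the TMM-scaled library sizes. DESeq2 1.42.0 and limma 3.58.1 served as alternatives, as did other scalings, filters, pseudocounts, leaving out each library, a replicate block and the addition of pseudogene copies. The fit was tested on simulated data. These were drawn from the fit's own model with a dispersion common to all genes, so the calls made on the real counts were not checked by it. Ratios were tested with SciPy 1.17.1. Intervals on counts cover counting error only. Members and lists were chosen with earlier results of these data known. All 7 members are named. From each list, up to 2 genes per direction with the smallest adjusted p among those called are named, and otherwise the gene with most counts. For NR3C1 and FKBP5, the 3 nearest profiles are named. HSPA14 stands in the table under 2 identifiers, and the one listed first was used. A further marker list is not reported here.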

Additional observations from a re-analysis of the deposited data

How the results depend on the processing

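HSP90AB1, FKBP5 and STIP1 stayed past an adjusted p of 0.05 in 19 of 19 alternatives each, with log2 fold changes of 0.61 to 0.69, 0.45 to 0.54 and 0.33 to 0.43, and HSP90AB1 was past 1.5-fold in all 19. No member changed direction in any alternative. NR3C1 ranged from -0.17 to -0.09 and passed the adjusted p in 6, namely upper quartile scaling (-0.16), library size only (-0.17), at least 10 counts in every library (-0.13), protein-coding genes only (-0.14), the replicate block (-0.10) and without Sup-B15 replicate 3. PTGES3 ranged from 0.12 to 0.23 and lost the call in 7, among them upper quartile scaling (0.13), library size only (0.12) and log2(FPKM + 1) with no filter (0.19). HSP90AA1 passed with the replicate block (0.10) and without Sup-PR replicate 1. Leaving out each library in turn gave log2 fold changes of -0.13 to -0.088 for NR3C1, 0.13 to 0.23 for PTGES3 and 0.06 to 0.15 for HSP90AA1. Scaling by library size only moved the median of all genes to -0.08. The number of members called was 1, but 2 with no filter on low counts (FKBP4 added, lower), 0 against a fold of 1.5 (glmTreat) and 4 by adjusted p alone. Among the other lists, with 1 to 23 genes tested in each, 6 genes were called higher and 9 lower, and by adjusted p alone 38 and 16. Of all genes tested, 7.53% were called higher and 15.4% lower, and by adjusted p alone 28.0% and 27.4%. The NR3C1 to HSP90 ratio was -0.46 from raw counts without length. The alternative with pseudogene copies also used raw counts without length and gave the same -0.46, so the copies added no shift at this precision. The cause of the other shifts was not tested.

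Replicate numbers were not used as pairs. Deviations of same-numbered libraries correlated at 0.134, -0.064 and 0.196. With the replicate block, the count of members called stayed at 1, while NR3C1 and HSP90AA1 passed the adjusted p (edgeR, 0.0271 and 0.0172). The ratio of FKBP5 to FKBP4 could not be computed, so its alternatives were not run. Pseudogene copies amounted to 0.251 to 0.349% of HSP90AA1, 0.143 to 0.22% of HSP90AB1 and 1.39 to 1.69% of PTGES3 counts. With 3 libraries per line, no exact test of a ratio could pass 0.05, and depth limits FKBP4, for which 3 counts are the floor.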
